A study of Arabidopsis thaliana with 2 samples.

Results

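The genes described here are the TIR-NBS-LRR class disease resistance genes of *Arabidopsis thaliana* outside the RPP5 cluster of chromosome 4. They were the protein-coding genes whose TAIR10 description names the TIR-NBS-LRR class, without the loci from AT4G16860 to AT4G16960. A gene also needed at least 10 covered CpHpG cytosines (H is A, C or T) and on average 4 or more reads at each CpHpG cytosine of the Col-0 library. Of 91 genes of the class, 7 lay in the cluster and 84 outside it, and 83 of these 84 passed the read filter, as did 26445 of 27444 protein-coding genes of the 5 chromosomes. The gene that did not pass was VICTR (AT5G46520), with 3.15 reads per CpHpG cytosine, and the member closest to the minimum was RPP1 (AT3G44480), with 4.51 reads. Only 29.2% of 75-base segments of VICTR and 43.8% of those of RPP1 mapped to a single place once converted as bisulfite treatment converts them.

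DNA methylation was read at single bases by whole-genome bisulfite sequencing of rosette leaves from 3-week-old first-generation plants homozygous for *ibm1-1*, grown on plates at 21 °C with 16 h of light. The libraries, 1 each, came from the mutant in the Col-0 ecotype and from the mutant in the Ler-0 ecotype, which received its *ibm1-1* allele from Col-0 by repeated backcrossing. Both groups therefore carry the mutation, no wild-type library was analysed here, and the levels below are those of mutant plants and not gains. With 1 library per ecotype there was no replicate check and no test between ecotypes. The 95% Wilson intervals given below therefore cover counting error only, and they treat every call as independent. Intervals of a median come from the spread over genes, taken as independent, and do not cover differences between plants or libraries. The number of plants behind each library is not stated in the labels or methods. The Col-0 library held 371653818 cytosine calls (8.63 per cytosine) and the Ler-0 library 313387873 calls (6.58 per cytosine), and 1.34% and 1.39% of the chloroplast calls of Col-0 and Ler-0 were read as methylated, which is the non-conversion rate that every level below includes.

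TIR-NBS-LRR proteins are intracellular immune receptors. An amino-terminal TIR domain signals, a central NB-ARC domain binds nucleotides through its P-loop and acts as the switch, and carboxy-terminal leucine-rich repeats (LRR) keep the receptor inactive or recognise pathogen effectors. Their signal passes through EDS1 with PAD4 or SAG101 to the helper receptors of the ADR1 and NRG1 families. IBM1 is a histone demethylase that removes H3K9 methylation from transcribed genes. CMT3, the CpHpG methyltransferase, is recruited by that histone mark, and loss of IBM1 is known to let CpHpG methylation build up in gene bodies that already carry CpG methylation.

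Most of the 83 members carried little methylation in *ibm1-1* Col-0. Their median gene-level CpHpG methylation, the percentage of methylated calls over the whole annotated gene, was 2.84% (interval of the median, 2.51 to 3.08%), against 2.63% over all protein-coding genes. The median CpG level was 6.45% in the members and 7.05% in all genes, and the median CpHpH level was 1.03% and 1.09%. With a minimum mean of 8 reads, the median CpG level of the 54 members left was 11.5%. CpHpG reached 25% in 2 of the 83 members, AT4G36140 and AT5G40910, and in 7.92% of all genes. It reached 10% in 14 members (16.9%) and in 18.9% of all genes, a share close to the background. When the calls of all members were pooled, 16.7% of CpG and 7.64% of CpHpG calls were methylated, against 24.96% and 12.3% over all genes. The members are long, with a median of 4581 bp against 2117 bp.

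**Figure D1:**
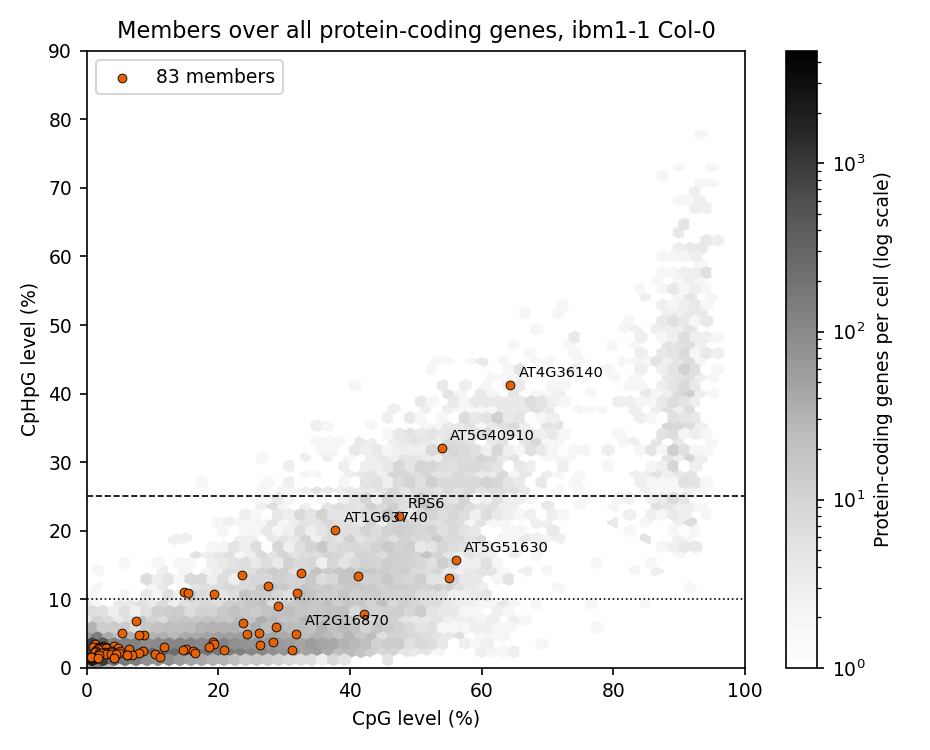
CpG level (x axis, %) against CpHpG level (y axis, %) in ibm1-1 Col-0 for the 83 members (orange points) over all 26445 protein-coding genes (grey cells, log colour scale). The dashed and dotted lines mark 25% and 10% CpHpG, with 2 members above the dashed line and 14 above the dotted line, and the highest CpG level of a member is 64.3%.

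The members fell into 3 kinds by level. The first comprised the 14 members with CpHpG of 10% or more, which ranged from 10.8 to 41.2%. The second comprised 16 members with CpG of at least 10% but CpHpG under 5%. Not all of this CpG lay in coding sequence: in RMG1 (AT4G11170), named after its values were seen, CpG was 1.74% before and 2.35% after the P-loop, and 85.4% in a 1587-base intron with 21.5% CpHpG. The 16 were 45.7% of the 35 members with CpG of at least 10%, and among all genes with that much CpG the share under 5% CpHpG was 42.4%. The third comprised 46 members with under 10% CpG and under 5% CpHpG, whose CpHpG levels ranged from 1.38 to 4.77%. The remaining 7 members had 5.09 to 8.96% CpHpG.

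**Figure D2:**
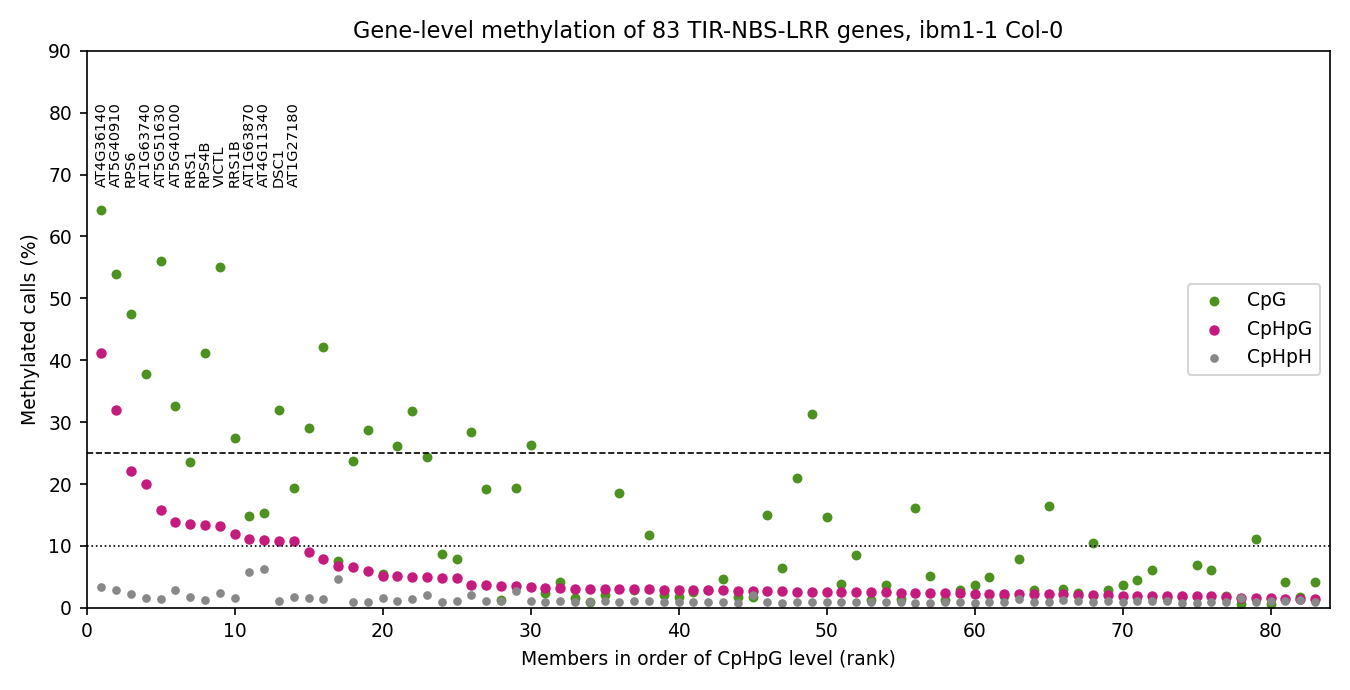
CpG, CpHpG and CpHpH levels (y axis, % of calls methylated) of each of the 83 members in ibm1-1 Col-0, ordered by CpHpG level (x axis, rank), with the 14 members at or above 10% named. CpHpG drops below 5% after rank 21 while single members further right still carry CpG levels above 25%, and CpHpH stays under 7% throughout.

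AT4G36140, a member with no assigned function, had the highest CpHpG level, 41.2%, with 64.3% CpG and 3.36% CpHpH (chromosome 4, 17098612 to 17104576). The next was AT5G40910, also uncharacterised, with 32.0% CpHpG, 53.9% CpG and 2.90% CpHpH (chromosome 5, 16394462 to 16400489). RPS6 (AT5G46470), the receptor for the *Pseudomonas* effectors HopA1 and its relatives, followed with 22.1% CpHpG and 47.4% CpG. AT1G63740, from the RLM1 region of chromosome 1, had 20.1% CpHpG and 37.7% CpG. All 4 had over 11 reads per CpHpG cytosine, against a median of 8.86 over the members, and AT5G40910 had 19.1, the most of any member.

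Characterised receptors were spread over all 3 kinds. RPS4 and RRS1 form a receptor pair in which RRS1 carries a decoy domain for effectors and RPS4 signals, and RPS4B and RRS1B form a second such pair. CpHpG was 13.5% in RRS1 (AT5G45260), 13.4% in RPS4B (AT5G45060) and 11.9% in RRS1B (AT5G45050), while RPS4 (AT5G45250), whose gene lies 27 bp from RRS1, had 4.77%. DSC1 (AT4G12010), a receptor tied to the cell death of *camta3* mutants, had 10.8%, and DSC2 (AT5G18370), tied to the same cell death, had 2.71%. SOC3 (AT1G17600), the partner of CHS1 in temperature-dependent immunity, had 2.48%, WRR4 (AT1G56510), which confers resistance to white rust, had 3.00%, and RLM1A (AT1G64070), which confers resistance to the blackleg fungus, had 1.83%. CSA1 (AT5G17880), the partner of CHS3, had 2.92%, and RPP1, a locus whose alleles in other accessions recognise the downy mildew effector ATR1, had 1.85%. VICTL (AT5G46510), the neighbour of VICTR, had 13.2%, but only 53.3% of its segments mapped to a single place.

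Within the highly methylated members, CpHpG methylation was low in the part of the gene that encodes the TIR domain. A P-loop was found in the translated coding sequence of 75 of the 83 members, 13 of them with CpHpG of 10% or more. In these 13, 3.15% of CpHpG calls before the P-loop were methylated, against 24.3% from the P-loop to the stop codon. CpG followed the same division, with 2.11% before and 55.0% after. The level was higher after the P-loop in 11 of the 13, and it was under 5% before the P-loop in 11 of them. The order was the reverse in AT1G63870 (17.7% before and 7.92% after), and in AT5G51630 both sides were low (4.24% and 3.79%). In the other 62 members with a P-loop, 2.51% of CpHpG calls before it and 3.19% after it were methylated.

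**Figure D3:**
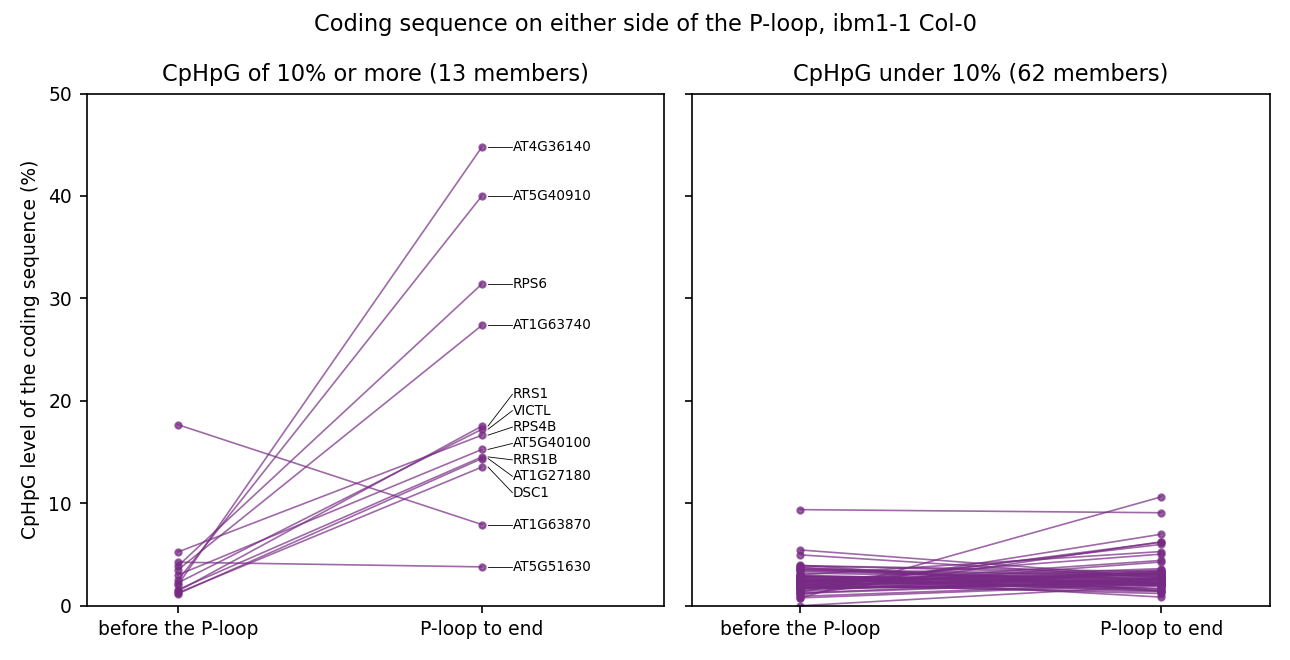
CpHpG level of the coding sequence (y axis, %) before the P-loop and from the P-loop to the stop codon in ibm1-1 Col-0, 1 line per member, for the 13 members with gene-level CpHpG of 10% or more (left) and the 62 below 10% (right). Of the 13 lines on the left, 11 go up from 5.24% or less to between 13.5 and 44.8%, and those of AT1G63870 and AT5G51630 go down.

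A low start of the coding sequence was also found in other genes, to a smaller extent. The P-loop lay at a median of 642 coding bases from the start codon, so the same number of bases was taken in the 1913 other genes with CpHpG of 10% or more and a coding sequence at least 3 times that long. In these genes 18.7% of CpHpG calls within the first 642 coding bases and 29.6% beyond them were methylated, and 39.6% of them, against 84.6% of the 13 members, were under 5% in the first stretch. The median of the first stretch was 2.48% in the 13 members and 8.57% in the other genes. No test was made of that difference.

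The NB-ARC and LRR parts could be separated in the 57 members that also had an MHD motif, which closes the NB-ARC domain. In the 10 of them with CpHpG of 10% or more, the level was 3.999% in the TIR part, 30.3% in the NB-ARC part and 25.4% in the LRR part. The NB-ARC part was highest in 6 of the 10 and the LRR part in 4. The NB-ARC part of AT4G36140, from residue 295 to the motif match at residue 652, was longer than the median of 277 residues and may hold LRR sequence. In AT4G36140 the 3 parts had 2.02%, 54.2% and 38.3%. In RPS6 they had 3.87%, 5.49% and 34.9%, so that the coding level was low up to the MHD motif. In VICTL the LRR part was also highest, with 2.22%, 0.962% and 18.6%, but VICTL was read in part only. Its tiles centred 2017, 2517 and 3017 bp from the gene start had 0 CpHpG calls, and 53.3% of its segments mapped to a single place. The levels of its parts therefore describe only the stretches with reads. In RPS4B the NB-ARC part was highest, with 5.24%, 28.6% and 11.3%.

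The contrast can be read in the sequence of AT4G36140 itself. A pair of 100-base coding windows is printed from the strand of the gene, in TAIR10 coordinates, with every CpHpG trinucleotide of either strand (CAG, CTG, CCG and CGG) in capitals. Each window was the one with the most CpHpG cytosines that had at least 5 reads in Col-0 and 3 in Ler-0 on its side of the P-loop, whatever their level.
AT4G36140, before the P-loop, chr4:17104223-17104322, minus strand: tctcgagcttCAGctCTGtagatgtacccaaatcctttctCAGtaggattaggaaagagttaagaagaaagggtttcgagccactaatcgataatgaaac
AT4G36140, after the P-loop, chr4:17102703-17102802, minus strand: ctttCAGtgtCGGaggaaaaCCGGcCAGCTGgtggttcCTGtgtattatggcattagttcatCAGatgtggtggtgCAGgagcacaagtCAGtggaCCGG

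In the first window, 1 of 63 CpHpG calls for Col-0, against 1 of 56 for Ler-0 were methylated, and so were 0 of 51 CpG calls for Col-0, against 0 of 48 for Ler-0, which allow shares of up to 5.88% and 6.25%. In the second, 321 of 657 CpHpG calls were methylated in Col-0 (48.9%, 45.1 to 52.7%) and 314 of 657 in Ler-0 (47.8%, 44.0 to 51.6%), beside 95.5% and 96.9% of CpG calls. Single sites in that window differed widely in both libraries. The cytosine at base 5, in a CAG, was methylated in 34 of 36 calls for Col-0, against 25 of 35 for Ler-0. The cytosine at base 26, in a CAG that adjoins a CTG, was methylated in 3 of 41 calls for Col-0, against 7 of 44 for Ler-0.

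CpHpG methylation of members differed with the trinucleotide. Pooled over the 14 members with CpHpG of 10% or more, 21.3% of CpApG calls, 19.5% of CpTpG calls and 16.4% of calls at the external cytosine of CpCpG were methylated. The order CpApG, CpTpG, CpCpG was also that of all genes, with 13.6%, 12.6% and 8.05%. CpApG was above CpCpG in 12 of the 14 members and CpTpG above CpCpG in 9. In RRS1 the levels were 15.7%, 13.6% and 5.63%, and in AT4G36140, where CpHpG was highest, all 3 were between 40.9 and 41.5%.

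CpCpG sites carry 2 cytosines, an internal one in CpG context maintained by MET1 and an external one in CpHpG context. A site was scored where both had at least 5 reads, with the internal cytosine counted as methylated from 50% and the external one from 25%. Of 1990 such sites in the 83 members, 298 (14.97%, 13.5 to 16.6%) had a methylated internal cytosine, against 22.6% of sites in all genes. Of these 298 sites, 114 were also methylated at the external cytosine (38.3%, 32.9 to 43.9%), against 35.9% over all genes. The external cytosine is one of the CpHpG cytosines by which the kinds of member were set apart, so the following shares describe the kinds and are no separate evidence for them. In the 14 members with CpHpG of 10% or more, 97 of 173 internally methylated sites were doubly methylated (56.1%, 48.6 to 63.3%). In the 16 members with CpG but little CpHpG, 5 of 65 were (7.69%, 3.33 to 16.8%), while the corresponding shares over all genes of these kinds were 51.3% and 4.25%. The pattern with only the external cytosine methylated was seen at 7 of the 1990 sites.

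Members with CpG but little CpHpG included AT2G16870, with 31.8% CpG and 4.99% CpHpG, AT5G46450, with 31.2% and 2.60%, AT4G08450, with 28.3% and 3.75%, AT5G18360, with 26.3% and 3.38%, and AT4G09430, with 24.3% and 4.98%. AT2G16870 had 11 internally methylated CpCpG sites among 25 with enough reads, and 1 of the 11 was doubly methylated. AT5G45200, a neighbour of RPS4 and RRS1 named here after its values were seen, had 16.5% CpG and 2.18% CpHpG, and none of its 12 internally methylated sites was doubly methylated. In AT5G46450, which belongs to the same group of neighbouring members as RPS6, CpG was 77.0% in the tile centred 1146 bp from the gene start and CpHpG there was 2.61%. A window after its P-loop, chosen for its number of CpG and CpHpG cytosines, shows both contexts side by side.
AT5G46450, after the P-loop, chr5:18839128-18839227, plus strand: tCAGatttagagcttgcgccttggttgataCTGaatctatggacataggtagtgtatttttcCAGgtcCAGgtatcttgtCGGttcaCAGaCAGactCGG

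In that window 39 of 75 CpG calls (52.0%, 40.9 to 62.9%) but 4 of 192 CpHpG calls (2.08%, 0.813 to 5.23%) were methylated in Col-0. The CpG at bases 98 and 99 was methylated in 8 of 8 calls on the printed strand and 12 of 13 on the other, and the overlapping CpHpG cytosine at base 100 in 0 of 13. In Ler-0, 11 of 47 CpG calls and 3 of 111 CpHpG calls were methylated.

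Some members carried CpHpG outside the coding sequence. AT5G51630, with 15.7% CpHpG over the gene, had 3.86% in its coding sequence although 56.1% of its CpG calls were methylated. Its CpHpG lay between the last coding base and the annotated gene end, a stretch of 1274 bases with 80.1% CpG and 34.1% CpHpG that the oppositely oriented gene YLS7 (AT5G51640) overlaps in part. The counts do not tell which of these genes the methylation belongs to. In AT1G63870, of the RLM1 region, CpHpG was 45.9% in introns against 9.30% in coding sequence, and its longest intron, of 1465 bases, had 73.8% CpHpG (45 of 61 calls) and 27.8% CpHpH. AT4G11340 had 24.7% CpHpG in introns against 2.12% in coding sequence, and its tile centred 3879 bp from the gene start had 49.2% CpHpG and 44.1% CpHpH, while 0 of 12 CpHpG calls in its longest intron were methylated. LAZ5 (AT5G44870), a receptor whose loss suppresses the cell death of *acd11*, had CpHpG under 10% in its first 8 tiles and 37.5% CpHpG with 25.8% CpHpH in the last. AT1G63870, AT4G11340 and LAZ5 were the only members with gene-level CpHpH of 4% or more, between 4.65 and 6.22%, and 5.57% of all genes reached that level.

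In the 1000 bases before the gene, the median CpHpG level was 2.46% for the 14 members with CpHpG of 10% or more and 2.75% for the other members. The highest upstream levels were 78.7% CpHpG and 45.1% CpHpH before AT5G36930, whose gene had 7.92% CpHpG, and 72.8% and 40.0% before AT2G17060, whose gene had 2.38%.

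Members within 50 kb of each other formed 19 groups that held 54 of the 83 genes, and the median CpHpG was 2.74% in these and 3.49% in the 29 lone genes. In most groups no member reached 10%, and levels in these groups lay between 1.62 and 5.14%. In the groups with such a member, neighbours could lie far apart. AT4G36140 (41.2% CpHpG) overlaps AT4G36150, which had 2.39%. In the group of 6 from AT1G63730 to RLM1B, levels ran from 2.49 to 20.1%, and in the group of 7 from AT5G45200 to RRS1 from 1.84 to 13.5%. By chromosome, 8 of the 14 members with 10% or more were among the 39 members of chromosome 5, 3 among 17 on chromosome 1 and 3 among 14 on chromosome 4, and none of the 13 on chromosomes 2 and 3 reached 10%. The share of all genes at 10% or more, 18.9%, was not split by chromosome, so no uneven spread can be read from these counts.

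The Ler-0 library was compared over 500-bp tiles of TAIR10 that could be placed once in the sequence rebuilt from the Ler-0 cytosine calls. Of the 768 tiles of the members, 607 (79.0%) were placed, against 97.1% of tiles in all genes, and 9 members, VICTL, CSA1 and AT4G09430 among them, had no placed tile. Of the 83 members, 66 were comparable, which required at least 2 tiles and 50% of a gene's tiles placed and the same minimum of cytosines and reads in both libraries. Over these tiles median depth at CpHpG cytosines was 8.92 reads for Col-0, against 6.94 for Ler-0. In 35 of 478 windows of 250 kb, all on chromosome 3, most Ler-0-specific cytosines had no reads, and 1 member, AT3G04220, lies there.

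Over the 66 comparable members, the median CpHpG level was 2.95% in Col-0, against 3.52% in Ler-0. The median of the differences, Col-0 minus Ler-0, was -0.47 points, against -0.29 over all 22924 comparable genes. The interval of the members' median, -1.01 to 0.02, comes from the spread over genes of 1 library pair. CpHpG reached 10% in 11 of the 66 members in Col-0 and in 11 in Ler-0, where 18.8% of all genes reached it in Col-0 and 23.7% in Ler-0. It reached 25% in 2 members for Col-0, against 3 for Ler-0, where the background was 11.4% of all genes. The same 8 members were at 10% or more in both libraries, 3 only in Col-0 (AT5G40910, RRS1 and AT4G11340) and 3 only in Ler-0 (RPS4, AT5G22690 and AT5G35510). All comparable genes were not split in this way, so whether such an overlap is usual at this threshold cannot be told. CpHpG was at least 10 points higher in Col-0 in 1 member, against 2.8% of all genes, and at least 10 points lower in 3 members, against 10.3%.

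**Figure D4:**
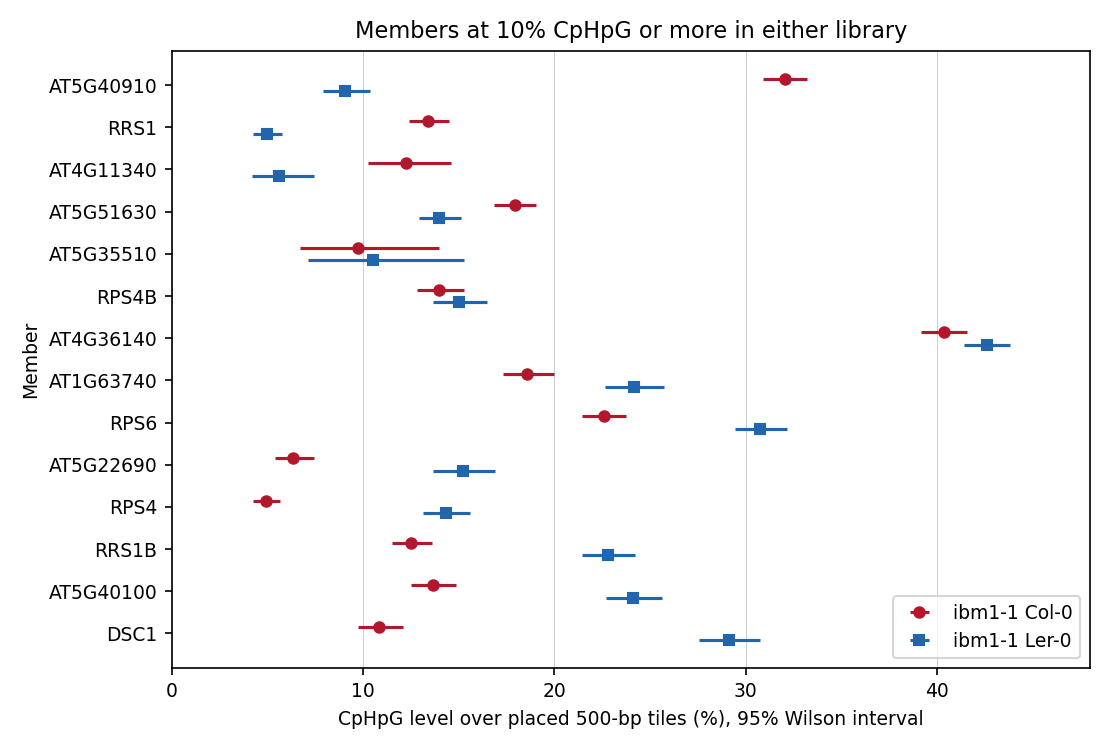
CpHpG level over placed 500-bp tiles (x axis, %) in the ibm1-1 Col-0 library (red circles, upper) and the ibm1-1 Ler-0 library (blue squares, lower) for the 14 comparable members at 10% or more in either, ordered by the difference, with 95% Wilson intervals that cover counting error only. Col-0 is higher in 4 of the 14, most in AT5G40910, and lower in 10, most in DSC1.

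The difference was largest in AT5G40910, with 32.0% CpHpG (30.9 to 33.2%) in Col-0, against 9.04% (7.88 to 10.4%) in Ler-0, 23.0 points (21.3 to 24.6). CpG differed too, with 54.0% in Col-0, against 19.8% in Ler-0. All 12 tiles of the gene were placed, and from 2289 to 4289 bp the 5 tiles of the methylated stretch had 36.5 to 44.4% CpHpG for Col-0, against 1.75 to 15.6% for Ler-0, with at most 1 base difference found in any of them. Depth differed at this gene more than at any other comparable member, with 19.2 reads at each CpHpG cytosine for Col-0, against 6.39 for Ler-0, and its part in the difference was not tested. RRS1 had 13.4% (12.4 to 14.5%) in Col-0, against 4.94% (4.23 to 5.76%) in Ler-0. AT4G11340 had 12.3% (10.2 to 14.6%) and 5.58% (4.19 to 7.41%), and AT5G51630 had 17.9% and 13.98%. In AT5G51630 the higher Col-0 level came mainly from past the coding sequence. Its tiles centred 6123 and 6623 bp from the gene start had 20.4% and 39.2% in Col-0, against 8.48% and 25.4% in Ler-0. Every tile centred from 1623 to 5123 bp was higher in Ler-0, with 1.40 to 8.33% in Col-0, against 4.55 to 18.4% in Ler-0.

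In the opposite direction, DSC1 had 10.8% CpHpG (9.73 to 12.1%) in Col-0, against 29.1% (27.6 to 30.7%) in Ler-0, a difference of -18.3 points (-20.2 to -16.3). AT5G40100 had 13.6% in Col-0, against 24.1% in Ler-0, RRS1B had 12.5% and 22.8%, and RPS4 had 4.88% and 14.3%. Over the whole gene, CpG levels of DSC1 were 32.4% in Col-0, against 39.6% in Ler-0, so the libraries were closer in CpG than in CpHpG. The same held at that scale for RRS1B, with 28.8% and 31.7% CpG, and for AT5G40100, with 32.5% and 37.6%. In RPS4 CpG was 8.94% in Col-0, against 18.5% in Ler-0. Within AT5G40100, the tile centred 3024 bp from the gene start had 1.39% CpG in Col-0, against 74.4% in Ler-0. CpHpG there was 13.97% and 38.95%. Its tiles centred 1524, 2024 and 2524 bp had 14.5 to 21.2% CpHpG in Col-0, against 23.97 to 31.6% in Ler-0. Their CpG was 51.7 to 61.6% and 46.6 to 62.6%. CpG was not alike all along DSC1 either. Its tile centred 1820 bp had 37.6% CpG in Col-0, against 1.36% in Ler-0, with 20.4% and 32.3% CpHpG. Counted over the gene, the CpCpG sites of DSC1 were close in CpG and differed in CpHpG. Internal cytosines were methylated at 15 of 34 scored sites for Col-0, against 14 of 30 for Ler-0, of which 3 were doubly methylated in Col-0 and 8 in Ler-0.

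RPS4 and RRS1, which start 27 bp apart, stood on different sides, with RRS1 higher in Col-0 and RPS4 higher in Ler-0. In the other pair, RPS4B had 13.98% in Col-0, against 14.99% in Ler-0, a difference of -1.01 points (-2.88 to 0.85). That of RRS1B was -10.3 points (-12.0 to -8.58). Both intervals cover counting error only. Windows from 4 of these members, chosen by the same rule and all after the P-loop, show the sites.
AT5G40910, chr5:16398184-16398283, plus strand: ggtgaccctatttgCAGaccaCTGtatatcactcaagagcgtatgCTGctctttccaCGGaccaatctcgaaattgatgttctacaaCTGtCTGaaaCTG
RRS1, chr5:18327678-18327777, plus strand: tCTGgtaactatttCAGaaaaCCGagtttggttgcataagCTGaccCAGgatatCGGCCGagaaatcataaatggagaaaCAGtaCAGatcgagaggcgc
DSC1, chr4:7197909-7198008, minus strand: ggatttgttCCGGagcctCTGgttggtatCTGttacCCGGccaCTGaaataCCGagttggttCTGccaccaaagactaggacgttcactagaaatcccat
RPS4, chr5:18323077-18323176, minus strand: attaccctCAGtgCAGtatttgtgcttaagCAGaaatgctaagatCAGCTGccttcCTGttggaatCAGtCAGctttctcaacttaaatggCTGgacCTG

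In the AT5G40910 window, 205 of 551 CpHpG calls were methylated in Col-0 (37.2%, 33.3 to 41.3%) and 21 of 169 in Ler-0 (12.4%, 8.27 to 18.2%). Of the 21 methylated Ler-0 calls, 12 came from a single CTG read on its 2 strands, 7 of 8 at base 92 and 5 of 18 at base 94. In the RRS1 window the counts were 71 of 303 (23.4%, 19.0 to 28.5%) in Col-0 and 28 of 256 (10.9%, 7.68 to 15.3%) in Ler-0, while CpG was 76.2% in Col-0, against 75.9% in Ler-0. In the DSC1 window they were 29 of 155 (18.7%, 13.4 to 25.6%) and 116 of 218 (53.2%, 46.6 to 59.7%), with CpG of 78.7% and 74.2%. The RPS4 window holds no CpG, and 29 of its 262 CpHpG calls (11.1%, 7.82 to 15.4%) were methylated in Col-0 and 78 of 221 (35.3%, 29.3 to 41.8%) in Ler-0.

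**Figure D5:**
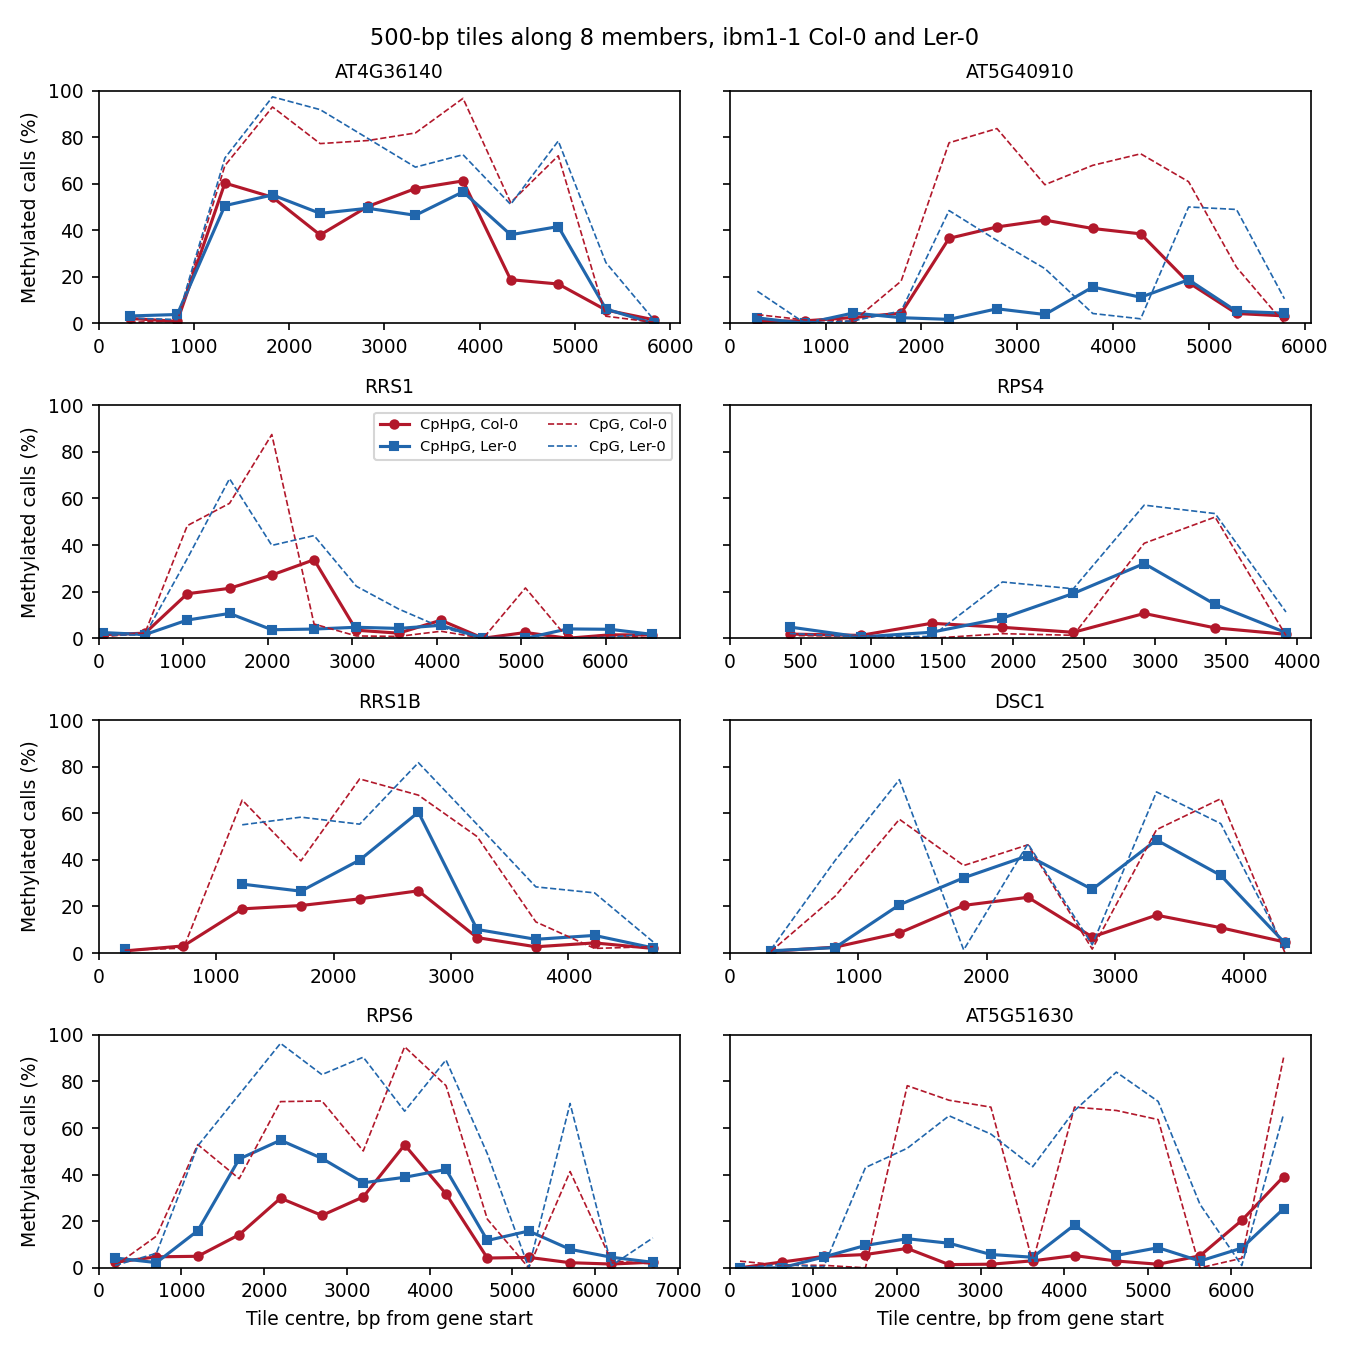
Methylation along 8 members in 500-bp tiles (x axis, bp from the gene start to the tile centre; y axis, % of calls methylated), with CpHpG as solid and CpG as dashed lines, ibm1-1 Col-0 in red and ibm1-1 Ler-0 in blue. CpHpG is low in the first tile of all 8, RRS1B and DSC1 have higher blue than red solid lines over most of their length, and in AT5G51630 Col-0 CpHpG stays under 10% up to the last 2 tiles, also where CpG is high, while Ler-0 CpHpG reaches 18.4% before them.

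Pooled over members, the low start was seen in Ler-0 as well. Over the placed tiles of the 10 comparable members with a P-loop and CpHpG of 10% or more in Col-0, tiles wholly before the P-loop had 2.21% CpHpG in Col-0, against 2.41% in Ler-0, and tiles wholly after it had 24.6% and 27.1%. In the other 51 comparable members, tiles after it had 3.14% in Col-0, against 4.56% in Ler-0. AT1G63870, which had the reverse order in Col-0, was not comparable and is not among the 10. Tiles that hold the P-loop counted on neither side. Single tiles near the start could be high: the RPS4B tile centred 713 bp from the gene start had 16.7% CpHpG in Col-0 (36 calls), against 69.8% in Ler-0 (63 calls). Members with CpG but little CpHpG in Col-0 were not all alike in Ler-0. AT5G46450 had 2.64% CpHpG in Col-0, against 8.13% in Ler-0, at 31.1% and 37.1% CpG. AT4G08450 had 3.78% and 3.62% at 29.3% and 28.7% CpG, and AT5G18360 had 3.43% and 3.79% while its CpG was 27.1% and 2.55%. DSC2 likewise had 15.1% CpG in Col-0, against 1.53% in Ler-0, with CpHpG of 2.71% and 1.70%.

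In the RPP5 cluster, all 7 genes had under 90% of segments mapping to a single place (median 60.5%, against 100% in the members), so reads from other copies may enter their levels. They had a median of 17.1% CpHpG in Col-0, 5 of the 7 reached 10% (71.4%, against 18.9% of all genes), and RPP4 reached 63.7%. In the 4 cluster genes that were comparable the median CpHpG level was 22.9% in Col-0, against 4.13% in Ler-0. The 21 CC-NBS-LRR class genes, the other main family of intracellular receptors, had a median of 2.37%. Of them, 3 reached 10% (14.3%, against 18.9% of all genes). This list was taken by description and not kept apart from the next one, so helper receptors may stand in both. Of 17 genes that act with or downstream of TIR-NBS-LRR receptors, 5 reached 10% CpHpG in Col-0 (29.4%, against 18.9% of all genes). Among them were the co-repressor TPR1 with 27.9%, the co-chaperone SGT1B with 22.7% and the helper receptor ADR1-L1 with 22.1%. EDS1, PAD4 and SAG101 had 2.61%, 2.34% and 3.63%, and the helpers NRG1.1 and NRG1.2 had 4.73% and 2.56%. None of these differences between lists was tested.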

How the data were processed

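Per the labels and the study's methods, DNA was extracted with the Plant DNeasy kit, 150 ng was converted with the EZ-DNA Methylation-Gold kit and libraries were made with the TruSeq DNA methylation kit. The authors trimmed reads with Trimmomatic and aligned them with Bismark (versions: not given in the sources used here) to TAIR10 for Col-0 and to a long-read Ler-0 assembly for Ler-0, and duplicates were collapsed. The deposited values are counts of methylated and unmethylated reads per cytosine. A level is methylated calls over all calls, uncorrected for non-conversion.

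The Ler-0 sequence was rebuilt from the deposited calls. Tiles of 500 bp of TAIR10 were aligned to it with bwa 0.7.19 and kept at a mapping quality of at least 20, a score margin of at least 20 and at least 400 aligned bp. Computation used Python 3.11.15, numpy 2.4.6, pandas 2.3.3, scipy 1.17.1 and Biopython 1.88. The scripts were tested on simulated data. Ecotypes were compared without a test, having 1 library each. Named members were the highest by CpHpG, the highest by CpG among those under 5% CpHpG, those with the largest differences and characterised receptors, and other members were named after their values were seen. The members and lists were chosen with earlier results of these data known. Alternatives changed thresholds, read minimums, mapping and tile filters, the aligner (minimap2 2.31), coding sequence only, and correction for non-conversion. The P-loop and MHD motifs were searched in translated coding sequences, and no protein or promoter sequence is printed here.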

Additional observations from a re-analysis of the deposited data

How the results depend on the processing

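Of 49 recomputed values, 40 moved by less than their spread or stayed within 1.5 times the count, 9 moved further and 0 reversed. The number of members at or above 25% CpHpG in Col-0, 2, was 14 at a threshold of 10% and 0 at 50%, and the 3 comparable members in Ler-0 were 11 and 0. Correction for the chloroplast non-conversion rate gave a median CpHpG of 1.52% in Col-0 in place of 2.84%. A minimum mean of 8 reads left 54 members and 19 comparable ones, with a median CpG of 11.5% in place of 6.45%, a median difference of -2.64 points in place of -0.47 and 0 members at least 10 points higher in Col-0 in place of 1, since AT5G40910 has 6.39 reads in Ler-0. Averaging the levels of single cytosines gave 2 such members, AT5G40910 and AT4G11340. At 20 points the 3 members lower in Col-0 were 0. With 1 library per ecotype no replicate could be left out, and members that are near-identical to other genes could share reads. No paired analysis was possible because each group holds 1 library.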
